A study of Mus musculus with 12 samples.

Results

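The p53 target genes considered here are Cdkn1a, Mdm2, Ccng1, Gadd45a, Bax, Bbc3, Trp53inp1, Sesn1, Zmat3 and Phlda3, and their members are all probe sets that the platform annotation assigns to 1 of these 10 genes. The annotation used here named 18 such probe sets among the 45037 that are not controls, for 9 of the 10 genes. It named none for Bax, which was therefore not analysed here. Of the 18, 14 were bright enough to be tested, covering all 9 genes. The other 4, Mdm2 1457929_at, Trp53inp1 1416927_at, Sesn1 1454699_at and Sesn1 1444376_at, had signals of 4.17 to 26.7 and lay above the array median on at most 1 of 12 arrays.

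RNA came from mouse embryonic fibroblasts (MEFs), connective tissue cells grown from embryos, and was hybridised to 12 Affymetrix arrays, 2 biological replicates in each of 6 groups. The groups were AMN107 and DMSO, which received no interferon, AMN107-IFNa and IFNa, and AMN107-IFNg and IFNg, the last 4 after 6 h of interferon alpha or gamma. Nilotinib, coded AMN107, blocks ABL and related tyrosine kinases, and DMSO is the vehicle. The labels state neither the dose and duration of AMN107 nor the mouse strain, the genotype, the passage or the p53 status of the cells, and Trp53 itself was not analysed here.

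p53 is a transcription factor that Mdm2 keeps scarce by marking it for degradation. When DNA is damaged or cells are stressed, p53 accumulates, binds paired copies of a short half-site in DNA and switches on genes that halt division, repair DNA, restrain growth signalling or kill the cell. Mdm2 is itself among these genes, which closes a feedback loop. Cultured fibroblasts use the pathway to enter arrest and senescence, and several of its targets, Gadd45a among them, can also be switched on by other stress factors such as ATF4.

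The promoters are shown because p53 half-sites are what these genes are known to share, and because Ccng1 and Gadd45a moved in opposite directions below. RefSeq promoter windows (build GRCm38.p6, 250 bases before and 50 after a transcription start) were found for 8 of the 10 genes, 12 windows in all. The p53 half-site (purines, C, A or T, G, pyrimidines; both strands, overlaps allowed) occurred in 6 of the 12 windows, 1 each for Cdkn1a, Mdm2, Ccng1, Gadd45a, Bax and Sesn1, and in 8.36% of 32851 windows of the same length (those of 1 chromosome not used). The Cdkn1a window held 2 copies and the other 5 held 1. A further Cdkn1a window, a further Sesn1 window and those of Phlda3 and Bbc3 held none, which says only that these letters are absent there. The Cdkn1a window without a half-site (chr17:29093519-29093818) belongs to a start downstream of the one printed below. The interferon response element GAAANNGAAA (3.44% of windows), the gamma-activated site TTCNNNGAA (8.3%) and the ATF4 element TGATGNAA (3.97%) occurred in 0 of the 12. A match is a description and not evidence of binding. The 250 bases before the start follow for 4 genes, 5′ to 3′ on the gene's strand, with half-sites in capitals.
Ccng1, chr11:40755287-40755536, - strand: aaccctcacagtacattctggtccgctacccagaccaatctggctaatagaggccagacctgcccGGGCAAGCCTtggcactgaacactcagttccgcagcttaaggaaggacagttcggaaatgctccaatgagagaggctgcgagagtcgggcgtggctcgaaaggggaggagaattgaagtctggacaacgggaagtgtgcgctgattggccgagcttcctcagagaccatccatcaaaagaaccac
Cdkn1a, chr17:29090729-29090978, + strand: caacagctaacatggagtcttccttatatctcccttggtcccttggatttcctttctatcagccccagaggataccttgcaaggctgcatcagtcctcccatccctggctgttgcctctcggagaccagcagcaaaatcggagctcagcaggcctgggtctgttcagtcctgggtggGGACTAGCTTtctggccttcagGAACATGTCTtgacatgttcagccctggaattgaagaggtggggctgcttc
Gadd45a, chr6:67037408-67037657, - strand: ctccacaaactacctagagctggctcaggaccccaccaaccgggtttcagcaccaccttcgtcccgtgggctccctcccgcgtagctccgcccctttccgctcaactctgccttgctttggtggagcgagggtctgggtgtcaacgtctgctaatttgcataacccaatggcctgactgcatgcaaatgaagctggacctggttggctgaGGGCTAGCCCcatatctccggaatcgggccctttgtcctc
Mdm2, chr10:117710759-117711008, - strand: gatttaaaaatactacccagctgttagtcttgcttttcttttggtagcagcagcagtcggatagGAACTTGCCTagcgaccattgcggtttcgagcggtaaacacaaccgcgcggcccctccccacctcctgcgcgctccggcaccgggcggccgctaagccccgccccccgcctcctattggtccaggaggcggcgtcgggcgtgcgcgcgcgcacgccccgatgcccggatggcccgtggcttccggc
These bases held a half-site in Ccng1, which was lower with AMN107, in Gadd45a, which was higher, and in Cdkn1a and Mdm2, whose probe sets differed (below).

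One array stood apart. On IFNa replicate 2 the 5' probes of GAPDH read far below its 3' probes (ratio 0.0252; 1.07 to 1.16 on the other 11 arrays). Differences between replicates varied more over probe sets for IFNa (SD 0.435, log2) than for any other group (0.131 to 0.157). Comparisons with the IFNa arrays are therefore given with and without this array, for the members and for the averaged effects named below. Because all groups share 1 estimate of spread, those arrays also widen the errors of the other comparisons. The GAPDH ratio was 1.12 to 1.16 on the 6 AMN107 arrays and 1.07 to 1.1 on the 5 others. The LysX spike-in control read 36.1 to 41.4 wherever AMN107 was given, against 36.1 and 40.6 for IFNg, 45.4 and 81.1 for IFNa and 59.6 and 66.2 for DMSO. Of 11 fibroblast markers 8 lay above the array median on all 12 arrays, while Thy1 and Lum did so on none. Their summed signal was 7086 to 7344 on AMN107 arrays and 9540 to 11650 on arrays without it, a gap carried by S100a4: with S100a4 left out the sums were 4951 to 5391 and 4347 to 6955, which overlapped. Of the 9 tested, 5 averaged lower with AMN107 (Col3a1, S100a4, Pdgfrb, Col1a2 and Col1a1), Fn1 averaged higher (log2 0.62), and Vim, Dcn and Pdgfra were not called. Epithelial markers summed to 94.5 to 120.3 with AMN107 and 121.5 to 158 without, with Cdh1 and Krt18 below the median throughout. The summed ranges of leukocyte, endothelial, muscle and neuronal markers overlapped. The part of these differences in the results below was not tested, and in bulk RNA fewer cells of a type and less RNA per cell cannot be told apart.

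Set against the matching cells without it, AMN107 lowered the brightest Ccng1 probe set 1.69- to 2.51-fold and raised Gadd45a 1.79- to 3.08-fold in all 3 interferon states. Of the dimmer Ccng1 probe sets, 1450017_at passed only with IFNa and with IFNg. Zmat3 and a dim Sesn1 probe set were lower in all 3 states, and 1 of 2 Cdkn1a probe sets was lower without interferon and with IFNa. One Mdm2 probe set was higher without interferon and with IFNa, while Bbc3 and Trp53inp1 passed in no state.

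Ccng1 encodes cyclin G1, which recruits the phosphatase PP2A to Mdm2. Its brightest probe set, 1420827_a_at, read 207 and 204 on the AMN107 arrays and 488 and 436 on the DMSO arrays. With interferon alpha it read 163 and 191 on the AMN107-IFNa arrays and 425 and 487 on the IFNa arrays, and with interferon gamma 203 and 222 on the AMN107-IFNg arrays against 360 and 368 on the IFNg arrays. All 6 AMN107 arrays lay below all 6 others. Signals were compared as log2(signal + 8.66), so folds are ratios of signal + 8.66. Ccng1 fell 2.19-fold with AMN107 alone (log2 difference -1.13, SE 0.11, limma adjusted p = 0.000104), 2.51-fold in the presence of IFNa (-1.33, SE 0.11, adjusted p = 8.36e-05) and 1.69-fold in the presence of IFNg (-0.75, SE 0.11, adjusted p = 0.00189). Without IFNa replicate 2 the fall with IFNa was -1.23 (adjusted p = 1.54e-06).

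The dimmer Ccng1 probe sets went the same way. The probe set 1450016_at had 56.9 to 75.8 on the 6 AMN107 arrays and 95.4 to 107.7 on the 6 others, and it fell in all 3 comparisons (log2 -0.44, -0.63 and -0.54 without interferon, with IFNa and with IFNg; -0.67 with IFNa without IFNa replicate 2). The probe set 1450017_at had 41.8 to 51.6 with AMN107 and 54.4 to 133.3 without. It fell with IFNa (-0.90) and IFNg (-0.83) and gave -0.31 without interferon (limma adjusted p = 0.359). Without IFNa replicate 2, whose 133.3 was the highest signal, the fall with IFNa was -0.41 (adjusted p = 0.0278) and that without interferon passed the test (-0.31, adjusted p = 0.0286).

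Cdkn1a encodes p21, the inhibitor of cyclin-dependent kinases through which p53 halts the cell cycle, and its 2 probe sets differed. The brighter, 1424638_at, read 374 and 397 on the AMN107 arrays and 521 and 547 on the DMSO arrays. It read 362 and 361 on the AMN107-IFNa arrays against 515 and 412 on the IFNa arrays, and with IFNg 355 and 369 on the AMN107-IFNg arrays against 416 and 390 on the IFNg arrays. The DMSO arrays were the highest and the groups did not overlap within any of the 3 states. Cdkn1a 1424638_at fell 1.38-fold with AMN107 alone (log2 -0.46, SE 0.11, limma adjusted p = 0.0106; 0.0737 without AMN107 replicate 1) and 1.27-fold with IFNa (-0.34, adjusted p = 0.0444), and gave -0.15 with IFNg (SE 0.11, adjusted p = 0.394). The call with IFNa was lost in 17 of 23 alternative settings, though without IFNa replicate 2 the difference was -0.50 (adjusted p = 0.000297).

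The other Cdkn1a probe set, 1421679_a_at, read 328.9 and 317.5 on the AMN107 arrays and 314 and 319 on the DMSO arrays. These groups overlapped, and the log2 difference was 0.03 (SE 0.25, limma adjusted p = 0.943). It was 284 to 300.4 on the AMN107-IFNa and AMN107-IFNg arrays, against 299 and 310.3 on the IFNg arrays. IFNa replicate 2 gave 146 and IFNa replicate 1 gave 316, and the difference with IFNa was 0.43 with both (adjusted p = 0.255) and -0.11 without replicate 2 (adjusted p = 0.329). No comparison passed for this probe set with all arrays, so a fall of Cdkn1a rests on 1 of its 2 probe sets.

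Gadd45a, a stress sensor that interacts with p21 and PCNA and activates p38 and JNK signalling, went the other way. Its 1 probe set read 327.5 and 297 on the AMN107 arrays and 104 and 87.8 on the DMSO arrays. It read 290 and 312.5 on the AMN107-IFNa arrays against 145 and 187 on the IFNa arrays, and with IFNg 258 and 270.2 on the AMN107-IFNg arrays against 135 and 114 on the IFNg arrays. The 6 AMN107 arrays were all above the 6 others. Gadd45a rose 3.08-fold with AMN107 alone (log2 1.62, SE 0.14, limma adjusted p = 4.45e-05), 1.79-fold with IFNa (0.84, SE 0.14, adjusted p = 0.00234) and 2.05-fold with IFNg (1.04, SE 0.14, adjusted p = 0.00108). Without IFNa replicate 2 the rise with IFNa was 1.01 (adjusted p = 2.36e-05). By group mean the order was AMN107 (312.4 ± 21.3), AMN107-IFNa (301.1 ± 16.2), AMN107-IFNg (264.2 ± 8.5), IFNa (165.9 ± 29.4), IFNg (124.6 ± 15) and DMSO (95.7 ± 11.3; SD, n = 2 each). The first 2 of these overlapped.

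**Figure D1:**
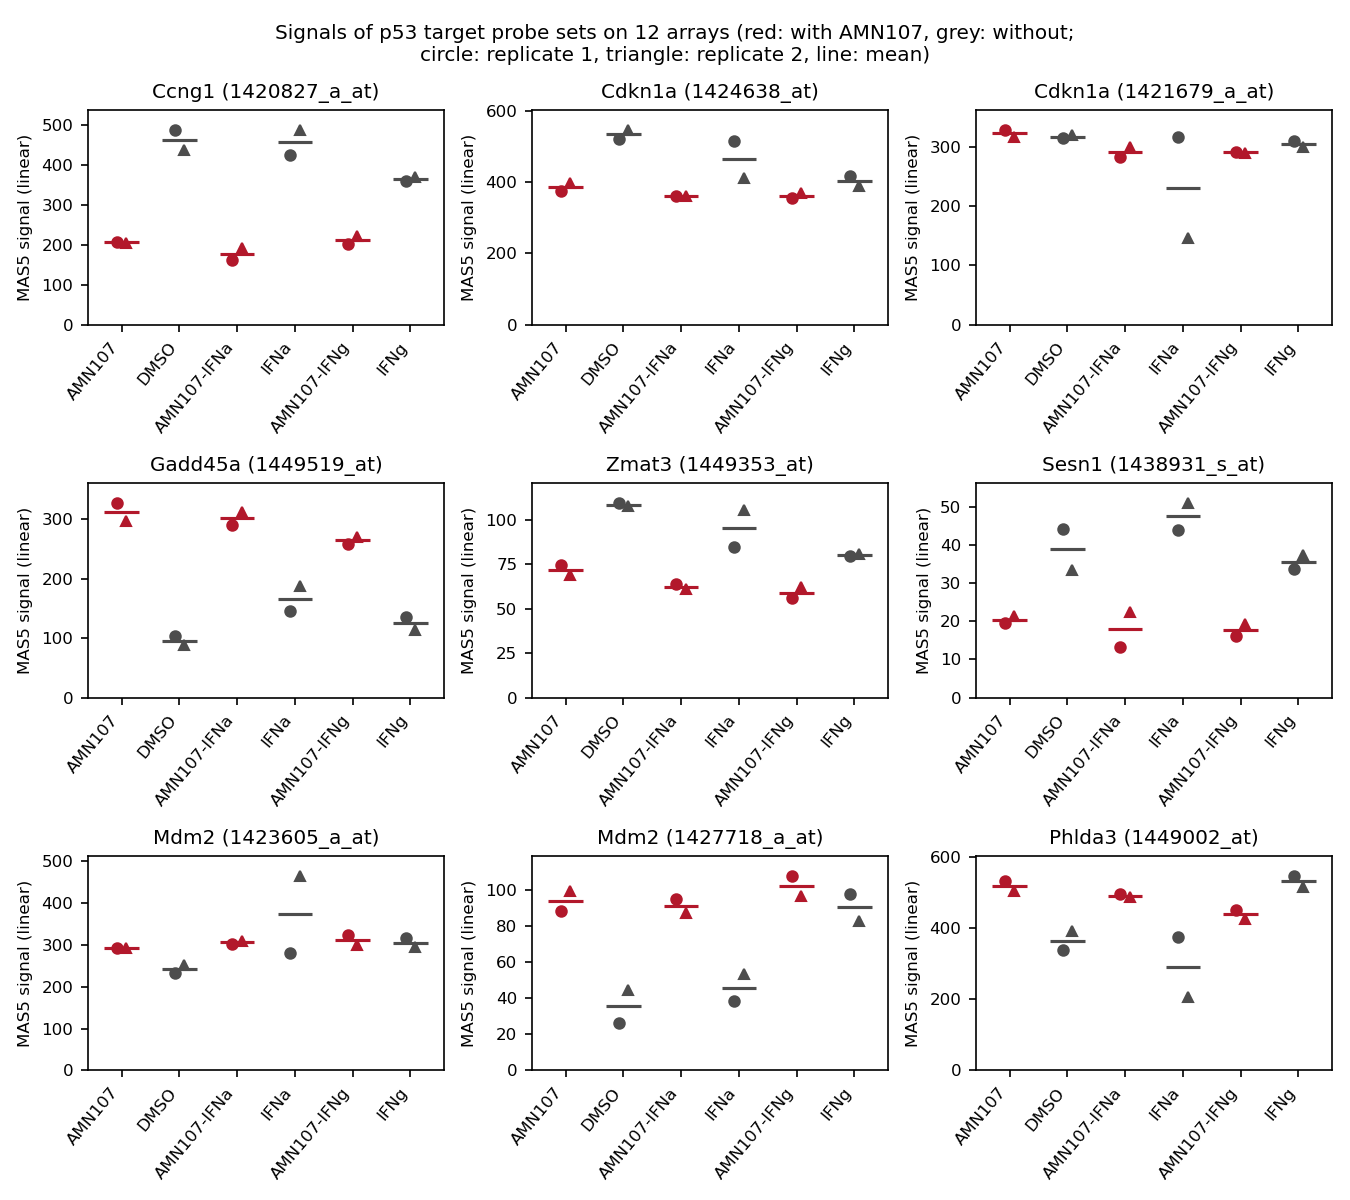
Linear MAS5 signal of 9 probe sets (y axes start at 0) in the 6 groups, with AMN107 groups in red left of their counterparts in grey; symbols are replicates 1 and 2 and lines are means. Ccng1, Zmat3 and Sesn1 1438931_s_at lie lower on all 6 AMN107 arrays and Gadd45a higher, while IFNa replicate 2 departs from its partner for several genes.

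Mdm2, the ubiquitin ligase that degrades p53, also differed between probe sets. The dimmer tested one, 1427718_a_at, read 88.5 and 99.9 on the AMN107 arrays and 26.6 and 44.9 on the DMSO arrays. It read 95.4 and 87.2 on the AMN107-IFNa arrays against 38.4 and 53.5 on the IFNa arrays, and with IFNg 108 and 96.9 on the AMN107-IFNg arrays against 98.2 and 83.1 on the IFNg arrays. Only the DMSO and IFNa arrays were low. These arrays also had the highest LysX signals, 45.4 to 81.1 against 36.1 to 41.4 on all others. Their actin 5' to 3' ratios were the lowest, 0.212 to 0.712 against 0.791 to 0.83. The part of this array split in the differences of this probe set, here and in the interferon responses below, was not tested. This probe set rose 2.36-fold with AMN107 alone (log2 1.24, SE 0.19, limma adjusted p = 0.00132) and 1.85-fold with IFNa (0.88, SE 0.19, adjusted p = 0.00899; 1.08 and 0.000477 without IFNa replicate 2), and gave 0.17 with IFNg (SE 0.19, adjusted p = 0.612), where the groups overlapped.

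The brightest Mdm2 probe set, 1423605_a_at, read 293 and 293.5 on the AMN107 arrays and 233 and 253 on the DMSO arrays. The log2 difference was 0.26 (SE 0.18, limma adjusted p = 0.284), and it passed without IFNa replicate 2 (SE 0.07, adjusted p = 0.0074). With IFNa it read 302 and 310.2 on the AMN107-IFNa arrays against 282 and 466 on the IFNa arrays (-0.24, adjusted p = 0.381; 0.12 and 0.348 without IFNa replicate 2, which turned the sign), and with IFNg 324 and 301 on the AMN107-IFNg arrays against 316 and 294 on the IFNg arrays (0.03, adjusted p = 0.929). With all arrays this probe set passed in no AMN107 comparison, so a rise of Mdm2 rests on 1427718_a_at. The untested Mdm2 probe set was dim at 5.49 to 8.93.

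Zmat3 encodes a zinc finger protein that binds RNA and acts in p53-dependent growth suppression. It read 74.8 and 68.7 on the AMN107 arrays against 109.6 and 107.5 on the DMSO arrays, with IFNa 63.9 and 60.9 on the AMN107-IFNa arrays against 84.8 and 105.5 on the IFNa arrays, and with IFNg 55.8 and 61.9 on the AMN107-IFNg arrays against 79.8 and 80.8 on the IFNg arrays. Each AMN107 group lay wholly below its counterpart. Zmat3 fell 1.46-fold without interferon (log2 -0.55, SE 0.11, limma adjusted p = 0.00441), 1.45-fold with IFNa (-0.54, adjusted p = 0.00577; -0.40 and 0.00723 without IFNa replicate 2) and 1.32-fold with IFNg (-0.40, adjusted p = 0.0317). The last call was lost in 11 of 24 alternative settings, with an adjusted p of up to 0.222.

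Sesn1 encodes sestrin 1, which limits oxidants and restrains the growth kinase mTORC1. Its probe set 1438931_s_at read 19.6 and 21.4 on the AMN107 arrays against 44.4 and 33.5 on the DMSO arrays. It read 13.3 and 22.6 on the AMN107-IFNa arrays against 44 and 51.2 on the IFNa arrays, and with IFNg 16.1 and 19.3 on the AMN107-IFNg arrays against 33.7 and 37.5 on the IFNg arrays. It lay above the array median on 2 of 6 AMN107 arrays and on all 6 others, so its level with AMN107 is close to the limit of the measurement and the size of the difference is uncertain. The log2 difference was -0.70 without interferon (SE 0.17, limma adjusted p = 0.0107), -1.10 with IFNa (adjusted p = 0.00156; -1.01 and 0.000756 without IFNa replicate 2) and -0.75 with IFNg (adjusted p = 0.0137).

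The brightest Sesn1 probe set, 1433711_s_at, read 43.1 to 55.1 on the 6 AMN107 arrays and 59.6 to 117.3 on the 6 others. It fell with IFNa (log2 -0.71, limma adjusted p = 0.0225) and gave -0.20 without interferon (adjusted p = 0.438) and -0.40 with IFNg (adjusted p = 0.191). In the fit without both IFNa arrays this probe set passed without interferon (-0.20, adjusted p = 0.0487) and with IFNg (-0.40, adjusted p = 0.00155). Its highest signal, 117.3, was that of IFNa replicate 2, without which the difference with IFNa was -0.32 (adjusted p = 0.0206).

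Phlda3, which competes with the kinase AKT for membrane lipids and so lowers its activity, was called in 1 of the 3 AMN107 comparisons. It read 532 and 504 on the AMN107 arrays against 338 and 391 on the DMSO arrays, and 495.5 and 486 on the AMN107-IFNa arrays against 375.5 and 205 on the IFNa arrays. In cells given IFNg the order was turned, with 450.5 and 426 on the AMN107-IFNg arrays against 547 and 516 on the IFNg arrays. With all arrays Phlda3 rose with IFNa present (log2 0.80, SE 0.21, limma adjusted p = 0.0207), and gave 0.50 without interferon (adjusted p = 0.0917) and -0.27 with IFNg (adjusted p = 0.421). Without IFNa replicate 2 the value with IFNa was 0.38 (adjusted p = 0.00546) and the rise without interferon passed (0.50, adjusted p = 7.97e-05). With all arrays neither interaction passed (0.30 for IFNa, adjusted p = 0.53; -0.77 for IFNg, adjusted p = 0.295), so a difference between states was not shown in that fit. In the fit without both IFNa arrays the fall with IFNg passed (-0.27, limma adjusted p = 0.0108). The rise without interferon (0.50, adjusted p = 7.88e-05) and the IFNg interaction (-0.77, adjusted p = 0.000196) passed there as well.

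The death genes Bbc3, which encodes the BH3-only protein PUMA, and Trp53inp1, a stress protein of the p53 response, gave small differences. Bbc3 ranged from 57.8 to 82.3 on the 6 AMN107 arrays and from 60.8 to 79.7 on the 6 others, and no comparison with AMN107 passed (log2 0.17, 0.15 and -0.13 without interferon, with IFNa and with IFNg; SE 0.13; limma adjusted p = 0.352, 0.436 and 0.547; 0.08 and 0.733 with IFNa without IFNa replicate 2). Trp53inp1 1416926_at ranged from 55.1 to 72.5 with AMN107 and from 51.7 to 77.3 without. Its log2 differences were 0.17, -0.30 and 0.15 (SE 0.10), with adjusted p = 0.218, 0.0507 and 0.349 (-0.28 and 0.0849 with IFNa without IFNa replicate 2). With 2 arrays a group these intervals do not exclude modest changes.

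Counted over the 14 tested probe sets, AMN107 alone changed 7, of which 2 were higher (Gadd45a and Mdm2 1427718_a_at) and 5 lower. Of all 24363 probe sets tested, 33.1% passed in this comparison, 20.7% higher and 12.4% lower. That split of all probe sets turned with the scaling, to 15.8% higher and 18.6% lower with quantile normalization and 15.3% and 22.2% with equal trimmed means (24% and 8.55% with median centring), while the members stayed at 2 higher and 5 lower under all 3. With IFNa present 10 of 14 passed, 3 higher and 7 lower, against 24.1% of all (11.2% higher and 12.9% lower), and without IFNa replicate 2 again 10, against 32.2% of all. With IFNg present 6 of 14 passed, 1 higher and 5 lower, against 15.4% of all (10.9% higher and 4.41% lower; 8.44% and 6.53% with equal trimmed means). For the effect averaged over the 3 states 10 of 14 passed, 3 higher and 7 lower, against 45.8% of all (25.9% higher and 20% lower; 21.6% and 27.3% with equal trimmed means), and without IFNa replicate 2 11 of 14, 4 higher and 7 lower, against 59.8% of all. The median log2 difference of the 14 was -0.09, -0.32, -0.21 and -0.16 in the same order, beside 0.03, 0, 0.01 and 0 over all probe sets tested. Several of these probe sets share a gene, so they are not independent. By the leading probe set of each gene, 4 of the 9 genes averaged lower (Ccng1 by 1.07, Zmat3 by 0.50, Sesn1 by 0.44 and Cdkn1a by 0.32 on the log2 scale) and 2 higher (Gadd45a 1.17 and Phlda3 0.34). Of all 12192 genes 46.2% were called, 25.2% higher and 21% lower. Phlda3 is the weakest of the member calls (limma adjusted p = 0.0411, and 0.12 with quantile normalization), and it was lost in 12 of 22 alternative settings. Its average joins 0.50 without interferon and 0.80 with IFNa to -0.27 with IFNg. Without IFNa replicate 2 the averaged values were -1.04 for Ccng1, -0.45 for Zmat3, -0.31 for Sesn1, -0.37 for Cdkn1a, 1.22 for Gadd45a and 0.20 for Phlda3, all called, and Mdm2 1423605_a_at was then also called (0.14, limma adjusted p = 0.0163).

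**Figure D2:**
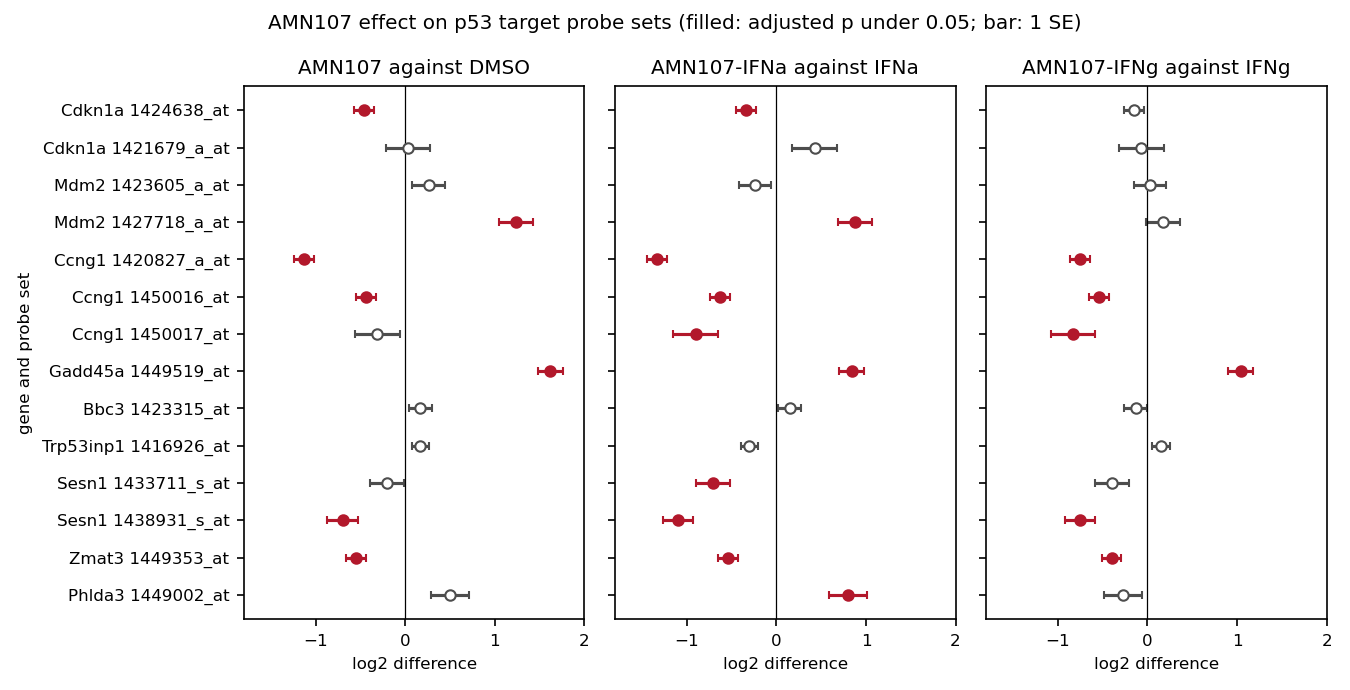
Log2 difference of each of the 14 tested probe sets with AMN107 against its counterpart without it, in the absence of interferon, with IFNa and with IFNg; bars are 1 SE and filled points passed the test. Gadd45a lies right of 0 and the Ccng1, Sesn1 and Zmat3 probe sets left of 0 in all 3 panels, while Phlda3 lies right of 0 in the first 2 and left of 0 with IFNg.

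Interferon by itself was examined next. IFNa against DMSO changed 1 of 14 probe sets, Gadd45a, which rose 1.67-fold (log2 0.74, SE 0.14, limma adjusted p = 0.0218; 0.56 and 0.0173 without IFNa replicate 2), beside 12% of all (8.91% higher and 3.08% lower; 4.06% and 8.45% with equal trimmed means). That call was lost in 4 of 23 alternative settings, among them the fits without DMSO replicate 1 or 2. IFNg against DMSO changed 3 of 14, beside 8.98% of all (6.65% higher and 2.33% lower; 6.08% and 5.27% with equal trimmed means). Mdm2 1427718_a_at rose 2.28-fold (1.19, SE 0.19, adjusted p = 0.00434), and Cdkn1a 1424638_at (-0.40, adjusted p = 0.0487) and Zmat3 (-0.40, adjusted p = 0.0459) fell 1.32-fold each. The calls of Cdkn1a and Zmat3 were each lost in 13 of 24 alternative settings. The brightest Mdm2 probe set, 1423605_a_at, gave 0.32 and was not called (limma adjusted p = 0.312). In the fit without both IFNa arrays 8 of 14 passed for IFNg, 5 higher and 3 lower, beside 28.8% of all. Mdm2 1423605_a_at was among the 8 (0.32, limma adjusted p = 0.00411), and Cdkn1a 1421679_a_at was not (-0.05, adjusted p = 0.572). Also among the 8, Ccng1 probe sets went opposite ways, with -0.33 for 1420827_a_at (limma adjusted p = 0.0091) and 0.41 for 1450017_at (adjusted p = 0.0117). These comparisons use the same DMSO arrays as AMN107 against DMSO.

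In cells that had AMN107, no member passed for either interferon. With IFNa 0 of 14 passed (0 at an unadjusted p under 0.05), beside 0.119% of all, and with IFNg 0 of 14 (1 unadjusted, Zmat3 at log2 -0.25, SE 0.11), beside 1.78% of all. Gadd45a gave -0.05 for IFNa and -0.23 for IFNg (SE 0.14) in these cells, and Mdm2 1427718_a_at gave -0.04 and 0.11 (SE 0.19).

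The interaction asks whether an interferon response differed with and without AMN107. With all arrays 0 of 14 passed in limma for either interferon (2 for IFNa and 4 for IFNg at an unadjusted p under 0.05), beside 0.152% and 1.38% of all. In the fit without both IFNa arrays 5 of 14 passed for IFNg, beside 13.1% of all. These were Mdm2 1427718_a_at (log2 -1.08, SE 0.21, adjusted p = 0.00361), Phlda3 (-0.77, SE 0.10, adjusted p = 0.000196), Gadd45a (-0.59, SE 0.14, adjusted p = 0.0103), Ccng1 1450017_at (-0.52, adjusted p = 0.0373) and Cdkn1a 1424638_at (0.31, adjusted p = 0.04). Phlda3 thus read highest with IFNg in the absence of AMN107 and lowest, among the AMN107 groups, with IFNg in its presence. Other probe sets of these genes did not pass in the same fit. Ccng1 1420827_a_at gave 0.38, of opposite sign (limma adjusted p = 0.0541), and Ccng1 1450016_at gave -0.1. Cdkn1a 1421679_a_at gave -0.09 and Mdm2 1423605_a_at gave -0.23 (adjusted p = 0.165). For IFNa, 0 of 14 passed without IFNa replicate 2 (0.439% of all) and 8 without IFNa replicate 1 (43.8% of all), the fit that keeps only the array with low 5' signal.

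**Figure D3:**
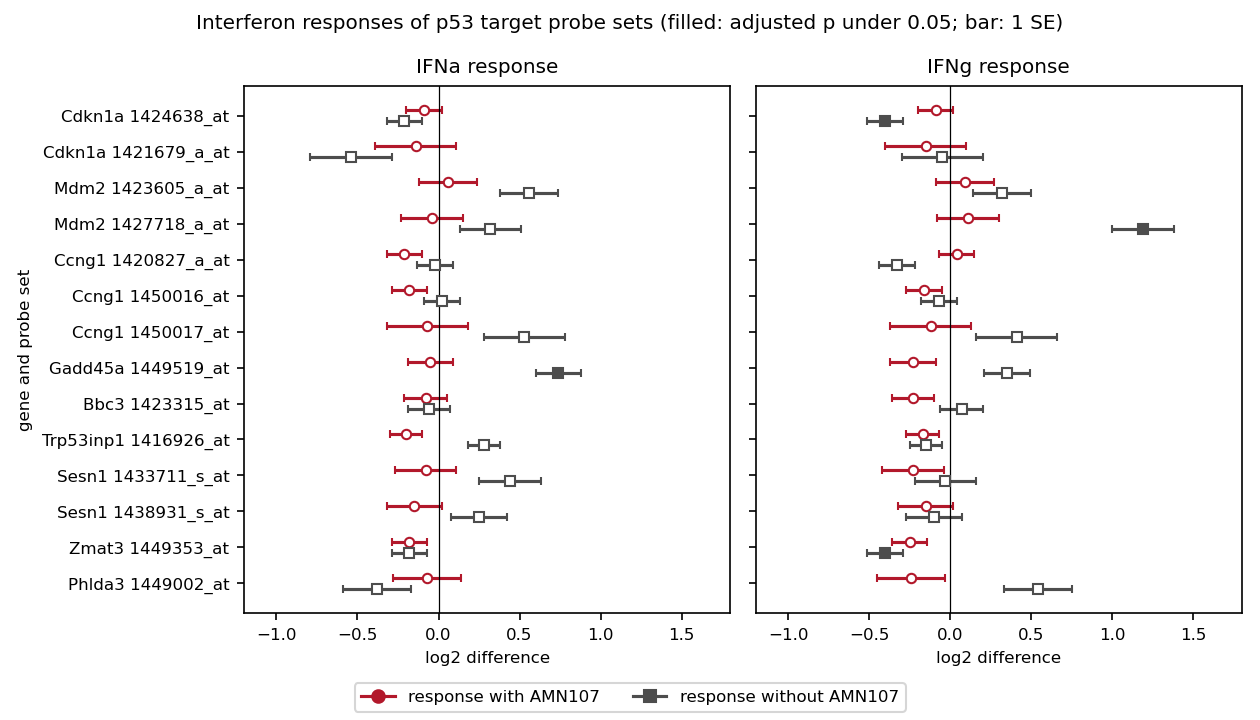
Log2 response of the 14 probe sets to IFNa (left) and IFNg (right), in red with AMN107 and in grey without; bars are 1 SE and filled points passed the test. The filled points are all grey: Gadd45a for IFNa, and Cdkn1a 1424638_at, Mdm2 1427718_a_at and Zmat3 for IFNg.

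Other genes of the p53 pathway were read by the brightest tested probe set of each, for the AMN107 effect averaged over the 3 states, where 25.2% of all genes were higher and 21% lower. Of 14 tested regulators of p53, 5 were higher and 2 lower (median log2 -0.01). The damage kinases Prkdc (0.71, SE 0.05), Atm (0.69, SE 0.08) and Atr (0.48, SE 0.08) rose, and the checkpoint kinase Chek1 fell by 0.35. Of 6 other arrest targets 1 was higher, Gtse1 (0.31), and 1 lower, Btg2 (-0.29), with a median of -0.14. Of 11 other death targets 4 were higher and 1 lower (median 0.07), led by the nuclease Aen (0.41), the BH3 protein Bid (0.35) and Siva1 (0.31). Of 11 repair and metabolism targets 2 were higher, the nucleotide excision repair genes Xpc (0.56, SE 0.07) and Ddb2 (0.51, SE 0.05), and 2 lower, Ninj1 (-0.42) and Ak1 (-0.27), with a median of -0.03. Among the regulators 7 of 14 were called, close to the 46.2% of all genes. In the 3 lists of other targets the shares, 2 of 6, 5 of 11 and 4 of 11, were close to or below that.

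Genes that p53 lowers through p21 and the DREAM repressor complex numbered 16 tested, of which 2 were higher and 7 lower (median -0.15). Ccne2, a cyclin of S phase entry, fell by 0.78 (SE 0.15), the proliferation marker Mki67 by 0.39 and the helicase subunit Mcm5 by 0.38, while Cdc20 (0.31) and the cyclin Ccna2 (0.26), named after their values were seen, rose. Of 12 genes of the ATF4 and CHOP stress response 9 were higher and 0 lower (median 0.49). Ddit3, which encodes CHOP, rose by 1.23 (SE 0.09), Ppp1r15a, the GADD34 phosphatase subunit, by 0.94, Trib3 by 0.66 and Atf4 by 0.52. By state, 11 of the 12 were higher without interferon, 6 with IFNa and 7 with IFNg, beside 19.9%, 10.6% and 12% of all genes. Without IFNa replicate 2, where 32.9% of all genes averaged higher and 28.2% lower, the ATF4 and CHOP list had 10 higher and 0 lower, the DREAM list 3 and 8, and the regulators 6 and 4. The other arrest, death and repair targets then had 1, 5 and 3 higher and 1, 1 and 3 lower, and every gene named here from these lists was called in the same direction. Whether these changes and that of Gadd45a share a source was not tested.

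**Figure D4:**
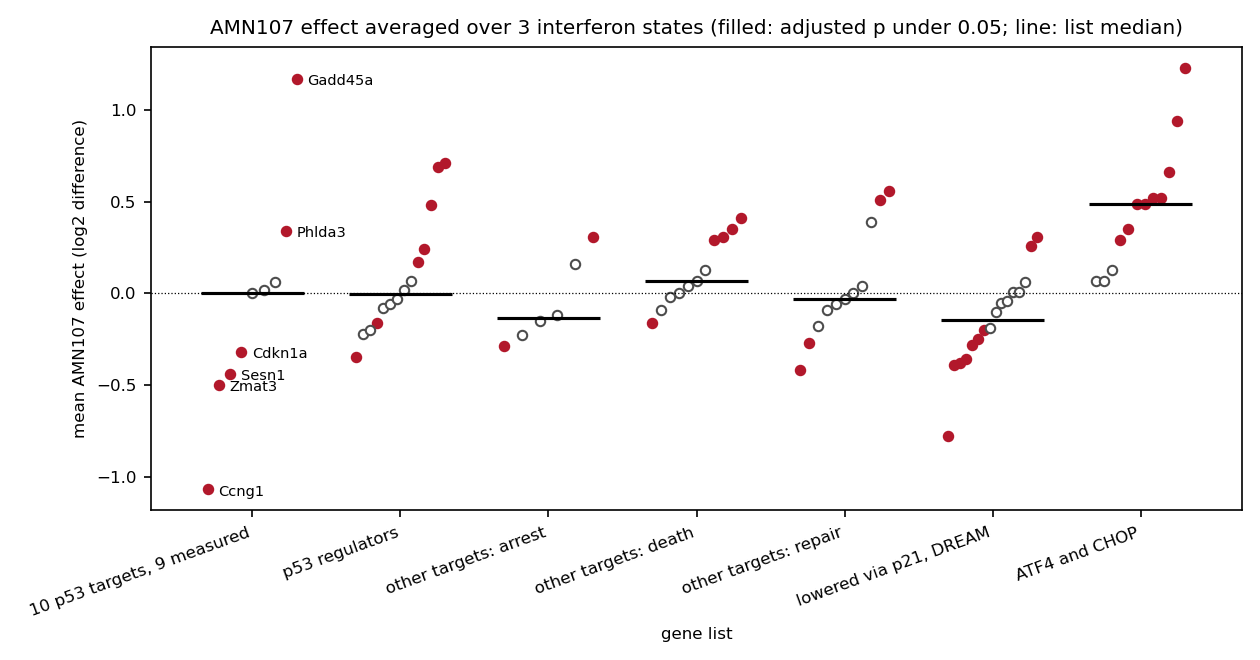
AMN107 effect (log2 difference averaged over the states without interferon, with IFNa and with IFNg) of each tested gene in 7 lists; filled points passed the test and lines are list medians. Members spread from Ccng1 at -1.07 to Gadd45a at 1.17 around a median of 0, and the 12 ATF4 and CHOP genes all lie above 0.

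The member genes were ranked by the range of group means of their brightest probe set, and the widest 3 were taken. For each, the genes with the most similar log2 signals over the 12 arrays were listed. For Gadd45a (range 1.62) they were Cspp1, Cth and Phkb, with Pearson r of 0.993, 0.985 and 0.984. For Ccng1 (range 1.35) they were Klhl2, Bgn and 2210408K08Rik (0.992, 0.989 and 0.987), and for Phlda3 (range 0.92) Araf, Tomm40 and Ppp4c (0.985, 0.98 and 0.977). These are the highest of 12192 genes over points that share groups and array quality, and for Phlda3 the low signal of IFNa replicate 2 is among them.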

How the data were processed

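The authors deposited linear signal intensities of 45101 probe sets on 12 arrays, made with MAS5 per the submitters' processing notes; version, settings and scaling rule are not given in the sources used here. The arrays' 2% trimmed means ran from 100.4 to 113.5. The platform annotation names genes. After 64 control probe sets were set aside, signals were taken as log2(signal + 8.66), the mean 25th percentile, with no further normalization. Probe sets above the array median on at least 2 of 12 arrays were tested (24363). limma 3.58.1 (R 4.3.3; lmFit, then eBayes with trend) estimated 1 mean for each group from all 12 arrays. For each of the 10 contrasts, two-sided p-values were adjusted by Benjamini-Hochberg over every tested probe set (threshold 0.05), and the script was tested on simulated data. A gene's leading probe set is its brightest. All probe sets of the members are reported. Other genes were read from fixed lists, naming up to 4 per list with the largest averaged AMN107 effect among those called. Members, lists and tests were chosen with earlier results of these data known. The number of arrays limits the precision. Replicate numbers are not stated to link groups, so no pairing was used. Over 15 pairs of groups, replicate differences correlated at -0.14 to 0.321. The 3 above 0.1 (0.321, 0.254 and 0.234) were the pairs among AMN107, AMN107-IFNa and IFNa. Alternatives covered pseudocount, filter, normalization, array weights, samples in the fit, a replicate block and leaving out each array.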

Additional observations from a re-analysis of the deposited data

How the results depend on the processing

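The count of called p53 target probe sets (of 14) for AMN107 against DMSO was 7 with all arrays, 4 with 1 probe set per gene (of 9), 11 without both IFNa arrays and 4 to 11 when 1 array was left out, lowest without AMN107 replicate 1. For AMN107-IFNa against IFNa it was 10, but 5 with array weights, 0 in a fit of these 2 groups alone and 5 to 12 leaving out 1 array, with 5 and 6 without AMN107-IFNa replicates 1 and 2. For AMN107-IFNg against IFNg it was 6, but 3 with 1 probe set per gene and 2 to 8 leaving out 1 array, with 2 without either IFNg array and 3 without either AMN107-IFNg array. The averaged AMN107 effect gave 10, 6 with 1 probe set per gene (of 9), and 9 to 11 leaving out 1 array. For IFNa against DMSO the 1 call became 2 without a filter or with quantile normalization, 3 with median centring, 0 with array weights or with these groups alone, and 0 to 9 leaving out 1 array (9 without IFNa replicate 1, 0 without either DMSO array). Median centring moved the median of all probe sets in that comparison by 0.12. For IFNg against DMSO the 3 calls became 1 without a filter, with median centring or with the replicate block, 8 with array weights, without both IFNa arrays or with these groups alone, and 0 to 8 leaving out 1 array: 8 without either IFNa array, 0 without IFNg replicate 1 and 1 without any 1 of the other 9 arrays. The response to IFNg with AMN107 gave 0 calls, 1 with its groups alone. The IFNg interaction gave 0, but 3 with array weights, 5 without both IFNa arrays or with its groups alone, and 0 to 5 leaving out 1 array (5 without either IFNa array, 1 without DMSO replicate 2). The IFNa interaction gave 0, and 8 without IFNa replicate 1. Apart from the fits that drop an IFNa array or reduce the probe sets tested, the cause was not tested. Pairing by replicate number changed no other count by more than 1.5 times: 7, 9, 6 and 10 for the 4 AMN107 effects with the replicate block. Read by the leading probe set, Ccng1 and Gadd45a were called in all 3 AMN107 comparisons under every alternative except the fit of the IFNa and AMN107-IFNa arrays alone (limma adjusted p = 0.069 and 0.117), and no called member reversed direction.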
